A study of Mus musculus with 18 samples.

Results

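Most microRNA (miRNA) hairpins can yield a pair of mature miRNAs, and the share of each that Argonaute 2 (Ago2) held was compared across 6 libraries of mouse colonic epithelium. A hairpin, or stem, was taken when the table of normalized reads listed both its 5p arm (cut from the 5′ side of the hairpin) and its 3p arm under the same stem name. It was kept when its arms together averaged 20 normalized reads or more across libraries. Of 459 mature miRNAs, 30 carried no arm in their name, 109 stems were listed by their 5p arm only and 96 by their 3p arm only. Both arms were listed for 112 stems, of which 91 (182 miRNAs) were kept and 21 were below the minimum. The 91 stems held between 57.7 and 61.3% of all miRNA reads of a library.

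The libraries came from HEAP, a form of CLIP-seq in which a Halo-tagged Ago2 is pulled down after UV crosslinking and its bound small RNAs are sequenced. All mice were C57BL/6, 8 to 12 weeks old, and carried Halo-Ago2/+ and Fabp-Cre/+, a Cre recombinase under a promoter active in intestinal epithelium; the distal colon was scraped to enrich for epithelium. The 3 control libraries had wild-type K-Ras (WT) and the 3 experimental libraries carried in addition the oncogenic allele K-Ras-G12D/+ (G12D). The labels number the libraries of each genotype but do not say that they are from separate mice, so a p-value here reflects only the spread between these libraries, which may be technical.

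Depth was 437439, 535932 and 466178 reads in WT and 337788, 388247 and 433245 in G12D. Of the epithelial marker miRNAs 10 of 10 were in the table, and their sum was 93095 to 131903 normalized reads in WT and 130677 to 154894 in G12D. Muscle and stromal markers (6 of 9; miR-199b, miR-214 and miR-204 absent) summed to 376 to 468 and 361 to 403. Blood and endothelial markers (7 of 9; miR-223 and miR-486a absent) summed to 1945 to 3429 and 1733 to 2298. Neural and enteroendocrine markers (7 of 8; miR-124 absent) summed to 7613 to 8767 in WT and 9045 to 10890 in G12D, without overlap. The normalized reads of all miRNAs together were also higher in G12D, at 462531, 517334 and 469831 against 414529, 364832 and 348678 in WT. Higher marker sums in G12D may therefore depend on the scaling. Divided by these totals, the neural and enteroendocrine sums overlapped between the genotypes, as did the epithelial and the blood and endothelial sums. The muscle and stromal sums were then lower in G12D, without overlap. The part of other cell types in the results below was not tested.

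Dicer releases a short duplex from the hairpin, and Ago2 keeps a single strand of it as the guide while the other is usually discarded. The kept strand is often the one whose 5′ end is less tightly paired, and Ago2 is known to favour a U or A as the first base. Because the seed (bases 2 to 8 of a guide) selects the targets, the arms of a stem address different sets of mRNAs. Some stems are known to load both arms.

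The sequences below belong to the stems on which the results turn. They were taken from RefSeq (GRCm38.p6), in which 166 of the 182 arms, and both arms of 80 stems, had an entry. Each is written 5′ to 3′ with the seed in capitals. The miR-200 family, known for holding cells in an epithelial state, comes first, because its 3p arms fall into a pair of seed groups and its 5p arms do not fall into the same ones: miR-200a and miR-200b share a 5p seed but not a 3p seed.
miR-200a-5p: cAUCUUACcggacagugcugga
miR-200a-3p: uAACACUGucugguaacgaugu
miR-200b-5p: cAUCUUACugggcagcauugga
miR-200b-3p: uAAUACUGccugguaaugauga
miR-200c-5p: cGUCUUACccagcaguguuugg
miR-200c-3p: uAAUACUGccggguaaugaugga
miR-141-5p: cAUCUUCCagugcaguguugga
miR-141-3p: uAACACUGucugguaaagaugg
The let-7d arms are shown with let-7b-5p, because let-7d alone among the 4 let-7 stems kept was mostly held as its 3p arm.
let-7b-5p: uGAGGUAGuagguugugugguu
let-7d-5p: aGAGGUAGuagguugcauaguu
let-7d-3p: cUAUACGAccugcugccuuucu
The arms of miR-130b carried the only genotype difference that passed, those of miR-423 and miR-139 were both held in quantity, and those of miR-106b show a 3p arm that none of its seed relatives kept to that extent.
miR-130b-5p: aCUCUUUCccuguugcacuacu
miR-130b-3p: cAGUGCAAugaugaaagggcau
miR-423-5p: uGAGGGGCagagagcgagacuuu
miR-423-3p: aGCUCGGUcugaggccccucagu
miR-139-5p: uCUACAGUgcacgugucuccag
miR-139-3p: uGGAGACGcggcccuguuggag
miR-106b-5p: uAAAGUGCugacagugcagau
miR-106b-3p: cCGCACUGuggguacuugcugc
miR-500 and miR-501 lie in the same host gene, and their 3p arms share a seed and most of their bases, so reads of these arms may be hard to assign.
miR-500-5p: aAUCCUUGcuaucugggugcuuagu
miR-500-3p: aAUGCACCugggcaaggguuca
miR-501-5p: aAUCCUUUgucccugggugaaa
miR-501-3p: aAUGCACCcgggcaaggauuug

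Across the 91 stems the 5p share (5p reads as a percentage of 5p and 3p reads together) spanned nearly the whole range. The 5p arm was the higher in 54 stems and the 3p arm in 37, by mean normalized reads over the 6 libraries. The mean 5p share was at least 90% in 41 stems, at most 10% in 20, and between these in 30, of which 19 lay between 25 and 75%. In 26 stems the lower arm held under 1% of the reads. The median of the 91 mean shares was 80.7%. Arms differed in length by at most 4 bases in the 80 stems with both sequences, and no length correction was made. Whether the arms of a stem were captured and sequenced equally well was not tested. A share of reads may therefore differ from the share that Ago2 held.

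**Figure D1:**
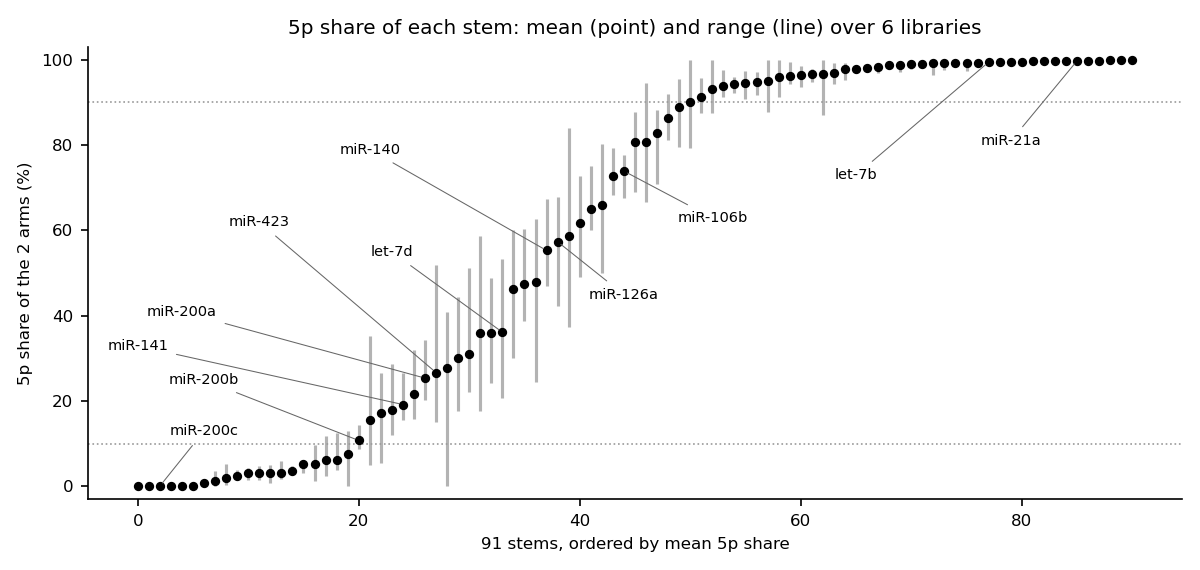
Mean 5p share (%, vertical axis) of the 91 stems, ordered from lowest to highest, with a vertical line for the range over the 6 libraries and dotted lines at 10 and 90%. The range has a median of 2.20 points over the 20 stems at or below 10% and the 41 at or above 90% together (at most 20.7) and of 22.5 points in the 30 stems between (at least 5.63).

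The order of the stems was much the same in every library. Over the 15 pairs of libraries, Spearman's rho of the 5p share across stems was 0.908 to 0.974, given as a description, since the libraries share the same stems. The higher arm was the same in all 6 libraries for 79 stems. In 11 others (miR-140, let-7d, miR-139, miR-423, miR-28a, miR-503, miR-574, miR-700, miR-143, miR-148b and miR-126a) it varied between libraries, and miR-500 was 5p in every library but G12D replicate 2, where its arms were equal. The SD within a genotype had a median of 1.76 percentage points over the 91 stems, against an SD of 40.3 points between stems. That SD exceeded the value expected from read counting alone by a median factor of 1.76, and by more than 2 times in 37 stems.

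The 10 stems with the most reads were miR-21a, miR-200c, miR-200b, miR-30e, miR-192, miR-30a, miR-200a, miR-30d, miR-141 and miR-215. miR-21a, a widely studied oncogenic miRNA encoded within the span of Vmp1 (hairpin on chromosome 11, 86584067 to 86584158), was held almost wholly as its 5p arm. Its 5p share was 99.8, 99.6 and 99.7% in WT and 99.7, 99.9 and 99.8% in G12D. Although miR-21a-3p made up so little of its stem, it still stood at 44.5 to 79.0 normalized reads in WT and 58.6 to 98.6 in G12D. miR-192 and miR-215, intestinal epithelial miRNAs with the same 5p seed, had mean 5p shares of 99.7 and 99.3%. In the miR-30 family all 4 stems kept were 5p stems, with mean 5p shares from 98.8 to 99.9%. These abundant 5p stems differed little between libraries, with SDs within genotype of at most 0.409 points for miR-30d and less for the others named here.

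The miR-200 family was 3p throughout, but its members differed in how much of the 5p arm Ago2 held. miR-200c kept almost none: 4.08 to 8.53 normalized reads of the 5p arm in WT and 1.33 to 9.59 in G12D, against 16813 to 26378 of its 3p arm, a mean 5p share of 0.0289%. miR-141, which lies beside it on chromosome 6 (124717914 to 124717985, against 124718322 to 124718390), had a 5p share of 19.7, 26.5 and 19.6% in WT and 16.5, 15.5 and 17.2% in G12D. miR-200b (chromosome 4, 156055681 to 156055750) had 9.29, 14.4 and 11.6% in WT and 10.9, 8.75 and 9.52% in G12D. Its neighbour miR-200a (156054896 to 156054985) had 23.8, 34.3 and 20.2% in WT and 20.8, 20.5 and 32.5% in G12D. Thus 3 of the 4 members held over 10% of their reads, by mean share, on their lower arm, which was the 5p arm. Over 10% on the lower arm was found in 30 of all 91 stems. The level of miR-200a-5p reached 1987 to 3671 normalized reads. miR-200a varied between libraries by 16.8 times the counting SD, with WT replicate 2 and G12D replicate 3 high and the other 4 libraries between 20.2 and 23.8%.

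Of the let-7 stems, which restrain growth and mark differentiation, let-7b, let-7i and let-7g were 5p stems with mean 5p shares of 99.5, 99.3 and 94.5%. let-7d, whose 5p arm carries the same seed, had a 5p share of 20.6, 27.1 and 47.1% in WT and 37.5, 53.4 and 31.2% in G12D. Its 3p arm ranged from 426 to 1140 normalized reads, while its 5p arm ranged from 254 to 488. The genotypes overlapped, and the spread between libraries was 8.28 times the counting SD.

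In the miR-17~92 cluster and its paralogs, which promote proliferation, the 5 stems kept were all 5p stems. miR-20a, miR-17 and miR-93 had mean 5p shares of 99.7, 98.96 and 98.0%. miR-106b was lower, at 74.2, 73.2 and 75.1% in WT and 67.6, 77.6 and 75.7% in G12D, and miR-106b-3p stood at 184 to 357 normalized reads. miR-106b and miR-93 are both encoded within the span of Mcm7 on chromosome 5, and miR-106b-5p, miR-93-5p, miR-17-5p and miR-20a-5p share a seed. miR-18a ranged from 81.2 to 91.9% over the 6 libraries. The stems of the miR-23/27/24 clusters that could be paired, miR-27b, miR-23a and miR-23b, were 3p stems with mean 5p shares under 0.1%: 0.0802, 0.0187 and 0.0739%.

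A list of 14 stems known for use of both arms had 9 members among the 91. Of these 9 stems 4, against 30 of all 91, held over 10% of their reads on the lower arm here: miR-140, miR-423, miR-28a and miR-126a. miR-425, miR-30e and miR-17 were nearly pure 5p stems, and miR-324 and miR-151 were 3p stems with mean 5p shares of 5.11 and 5.24%. miR-9, also on that list and known from neural cells, fell just below the minimum with a mean of 17.1 normalized reads and a mean 5p share of 94.7%. The other stems nearest to the minimum were miR-145a (19.4) and miR-411 (16.99) below it and miR-150 (20.4), miR-500 (24.7) and miR-376b (25.7) above it.

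Among the 72 stems that averaged 100 normalized reads or more, the 10 with a 5p share nearest 50% were miR-503, miR-700, miR-140, miR-574, miR-139, let-7d, miR-582, miR-3058, miR-28a and miR-423. miR-140, a miRNA best known from cartilage and encoded within the span of Wwp2 (chromosome 8, 107551244 to 107551313), was the most abundant of them. Its 5p share was 67.4, 52.8 and 62.2% in WT and 46.9, 53.4 and 49.0% in G12D. miR-423, encoded within the span of Nsrp1 (chromosome 11, 77078064 to 77078172), had 51.8, 16.3 and 35.6% in WT and 15.1, 22.4 and 18.8% in G12D. WT replicates 1 and 3 were above all G12D libraries, and WT replicate 2 was below 2 of them. miR-139, encoded within the span of Pde2a, had 64.0, 49.1 and 55.1% in WT and 72.7, 69.5 and 59.8% in G12D. miR-3058 was steadier, at 69.4, 69.5 and 71.8% in WT and 68.2, 78.2 and 79.4% in G12D. let-7d, miR-423, miR-28a, miR-574 and miR-582 had the largest SDs within genotype of the 72, and for miR-582 (24.2, 39.8 and 33.3% in WT, 42.4, 27.6 and 48.8% in G12D) this was 1.86 times the counting SD, against 7.05 times for miR-423. For single libraries of these 10 stems the Wilson 95% interval reached at most 2.02 points to either side for miR-140 and at most 12.97 points for miR-574, which covers counting error only.

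**Figure D2:**
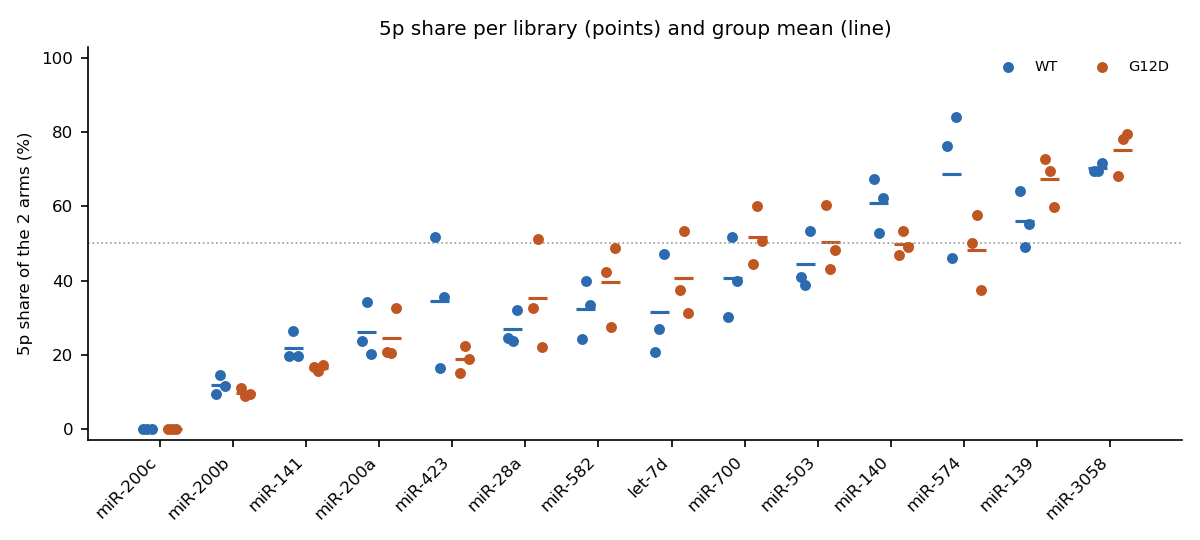
5p share (%, vertical axis) per library of the 10 stems nearest 50% and of the miR-200 family, WT in blue and G12D in orange, with a short line for each group mean (n = 3). Genotypes overlap in most stems, and miR-423, miR-574 and miR-28a spread widely within a genotype.

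Arms of the same seed family were not always split alike. miR-148a, miR-148b and miR-152 share a 3p seed and were 3p stems, with mean 5p shares of 6.23, 35.8 and 3.21%. For miR-148b this rested on a mean of 76.3 normalized reads, with libraries from 17.6 to 58.8%. miR-28a-5p and miR-708-5p also share a seed, but miR-28a was mostly 3p (5p share 22.1 to 51.1%) and miR-708 was 5p (96.4 to 100%).

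The higher arm differed from the lower in its first base. Among the 80 stems with both sequences, the higher arm began with U in 46 (57.5%) and the lower arm in 17 (21.2%), against 40.9% of the 1679 mature miRNAs of the RefSeq table. A began 15 higher and 32 lower arms, C began 12 and 24, and G began 7 of each. In 35 stems U began the higher arm only, and in 6 the lower arm only. In the 53 stems whose lower arm held at most 10%, U began 31 higher and 8 lower arms; in the 27 others it began 15 and 9. All 4 members of the miR-200 family have U on the 3p arm and C on the 5p arm, so this base does not separate miR-200c from the rest, and let-7d, with A on its 5p and C on its 3p arm, was held mostly as the arm beginning with C.

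The pairing of the duplex ends was computed from the same sequences with ViennaRNA, as the energy of the predicted pairs within the first 5 bases of each arm. The end of the higher arm was the less stable in 54 stems, the more stable in 22, and equal in 4, with a median difference of 1.45 kcal/mol. Spearman's rho between the end difference (5p minus 3p) and the mean 5p share was 0.42 over the 80 stems, given as a description. Within the 48 stems with a higher 5p arm it was -0.035, and within the 32 with a higher 3p arm 0.099. The relation was thus with which arm was the higher, and within either class rho was near 0. These ends are predictions from the mature sequences, and miRNAs of a seed family are not independent of each other.

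**Figure D3:**
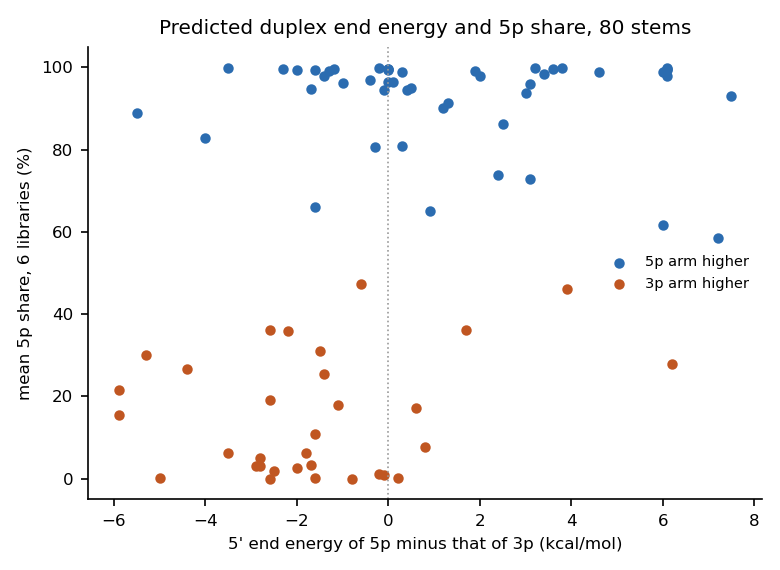
Mean 5p share (%, vertical axis) against the predicted energy of the 5′ end of the 5p arm minus that of the 3p arm (kcal/mol, horizontal axis) for 80 stems, blue where the 5p arm was higher and orange where the 3p arm was. Right of 0 the 5p end is the less stable. Orange points lie mostly left of 0, in 26 of 32 stems, and blue points lie on both sides, with 28 of 48 on the right.

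To ask whether both arms address sites that Ago2 occupied, arms were matched by name to the miRNA families of the authors' deposited peak annotation, where every family member had the same seed. Of the 80 higher arms with a sequence 52 matched a family, and these fell into 40 families. Their median was 45 annotated peaks holding an 8-mer or 7-mer match to bases 2 to 8, with the peaks of a shared family counted for each of its arms. Of the 86 lower arms 4 matched: let-7d-5p (454 peaks, those of the whole let-7 family), miR-141-5p (38), miR-183-3p (10) and miR-139-3p (6). A further 9 lower arms and 4 higher arms could not be assigned because members of the named family differ in seed. Both the 5p and the 3p arms of miR-200a, miR-200b and miR-200c were among them. The list of families searched was the authors', so an arm without a family was not necessarily without sites.

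The overall balance of the arms overlapped between the genotypes. Of all reads of the 91 stems, 56.6, 60.9 and 58.7% were 5p in WT and 58.8, 58.2 and 59.5% in G12D (58.7 ± 2.14 and 58.8 ± 0.680%, SD, n = 3 per genotype; exact permutation p = 0.9, two-sided, where 0.1 is the smallest possible). The sign of this difference of 0.0977 points turned without miR-21a and without WT replicate 1 or G12D replicate 3. With each stem weighted equally, the median 5p share was 79.4, 79.8 and 84.02% in WT and 75, 77.6 and 83.5% in G12D (exact permutation p = 0.4). The lower arms together took 4.11, 5.13 and 4.48% of the reads in WT and 4.18, 3.79 and 4.68% in G12D. All 3 measures overlapped between the genotypes.

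Stem by stem, the arm ratio log2((5p + 1)/(3p + 1)) of the normalized reads was tested between the genotypes with limma. The ratio compares arms within a library, so a factor common to a library cancels except in the pseudocount of 1. Of the 91 stems 1 passed a Benjamini-Hochberg adjusted p of 0.05, which is 1.1% of those tested, and 11 (12.1%) had an unadjusted p under 0.05. The 5p share of the 3 G12D libraries lay entirely on one side of the 3 WT libraries in 15 stems (16.5%), higher in 6 (6.59%) and lower in 9 (9.89%). The 6 were miR-130b, miR-151, miR-501, miR-362, miR-126a and miR-540, and the 9 were miR-141, miR-378a, miR-23a, miR-203, miR-29a, miR-340, miR-190a, miR-339 and miR-500. Some of these separations rested on a few reads of the minor arm. miR-23a-5p stood at 0.948, 1.36 and 0.748 normalized reads in WT and at 0 in every G12D library. miR-190a-3p reached at most 2.66 and miR-203-5p at most 5.69 in any library. The median difference over the 91 ratios was 0.05 on the log2 scale, with 46 positive and 45 negative. Standard errors of these differences ran from 0.34 to 0.84 with a median of 0.62, so in most stems a change of 1 on this scale, a 2-fold change of the ratio, was within 2 standard errors and not detectable. The mean 5p share differed by under 1 point in 39 stems and by over 10 points in 10.

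**Figure D4:**
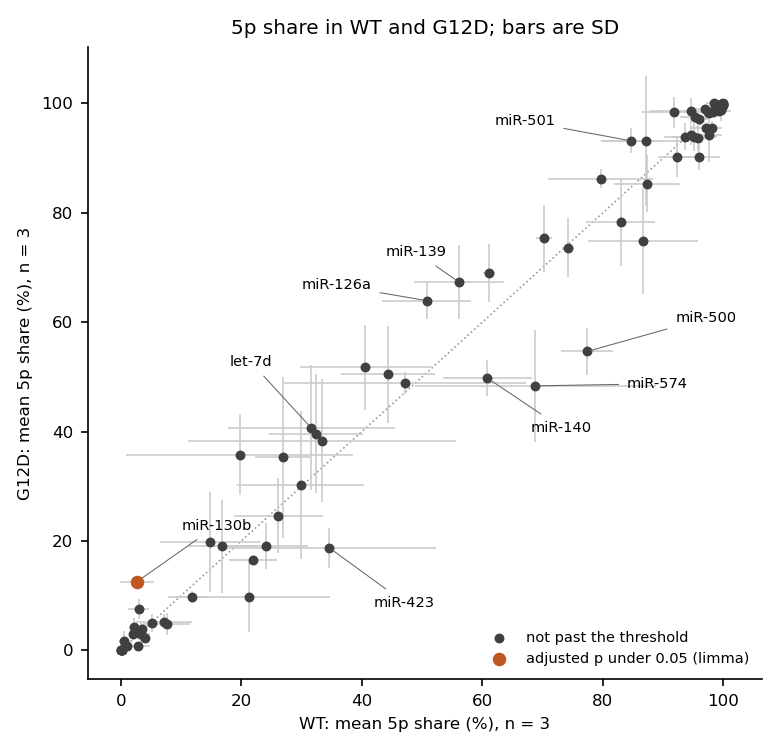
Mean 5p share (%) in G12D (vertical axis) against WT (horizontal axis) for the 91 stems, with SD bars (n = 3 per genotype) and the line of equality. The stem in orange, miR-130b, is the 1 that passed; most stems lie near the line, and those in the middle of the range have wide bars.

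The stem that passed was miR-130b, whose 3p arm belongs to the seed family it shares with miR-301 (hairpin on chromosome 16, 17124061 to 17124142, within the span of 2610318N02Rik). miR-130b-5p stood at 0, 7.49 and 7.48 normalized reads in WT and 21.9, 22.7 and 19.5 in G12D. The 3p arm went the other way, at 284, 127 and 308 in WT and 152, 164 and 132 in G12D, so the genotypes did not overlap for the 5p arm but did for the 3p arm. The 5p share was accordingly 0, 5.58 and 2.37% in WT and 12.6, 12.1 and 12.9% in G12D, and the log2 ratio differed by 3.00 ± 0.77 SE (limma adjusted p = 0.0393). In WT replicate 1, 0 of 300 reads were 5p, which allows a share of up to 1.00% by the limit of 3 reads in 300 and up to 1.26% by the Wilson 95% interval. Over the other libraries the Wilson 95% intervals reached up to 9.72% in WT and down to 7.72% in G12D. In the authors' deposited table miR-130b-5p was higher in G12D (log2 fold change 1.32 ± 0.46, adjusted p = 0.0493) and miR-130b-3p was at -0.60 ± 0.31 (adjusted p = 0.216). The call rests on few 5p reads: it ended in 11 of 20 alternatives, among them without WT replicate 1, where the difference was 1.80 (limma adjusted p = 0.445), without G12D replicate 1 (3.00, limma adjusted p = 0.503), and with edgeR's quasi-likelihood test on reads (2.66, adjusted p = 0.117).

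The other 10 stems with an unadjusted p under 0.05 did not pass, and those among them outside the rule for named stems were chosen after their values were seen. miR-501 had a 5p share of 79.5, 89.5 and 85.1% in WT and 91.2, 95.6 and 92.7% in G12D, without overlap (log2 ratio difference 1.29 ± 0.46 SE, limma adjusted p = 0.203). miR-500, from the same stretch of Clcn5 on the X chromosome, had 79.4, 80.3 and 72.3% in WT and 58.3, 50 and 55.6% in G12D (limma adjusted p = 0.3999). The pair therefore stood in opposite directions. miR-500 rested on 9 to 12 reads of both arms together in a G12D library, and the reads of its 3p arm may be shared with miR-501-3p. miR-362, also in that gene, had 97.0, 97.2 and 98.1% in WT and 98.5, 98.7 and 98.3% in G12D, which did not overlap but differed by 1.06 points.

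Several of these stems were held almost wholly as a single arm, so that their ratios rested on small levels of the minor arm. miR-340-3p stood at 12.3, 11.6 and 6.73 normalized reads in WT and 32.9, 39.97 and 41.2 in G12D, while the 5p arm ranged from 453 to 1141 with overlapping genotypes. Its ratio differed by -1.37 ± 0.60 SE (limma adjusted p = 0.270). miR-151-5p stood at 7.58, 18.4 and 26.2 in WT and 38.3, 42.6 and 46.6 in G12D, and its ratio differed by 1.52 ± 0.57 SE (limma adjusted p = 0.209). miR-29a-5p, the minor arm of a stem known for targeting collagens, stood at 31.3, 12.25 and 17.95 in WT and 12.32, 2.66 and 5.42 in G12D (ratio difference -1.94 ± 0.70 SE, limma adjusted p = 0.203). Here the 5p levels of the genotypes overlapped, and the share did not. The minor arm of miR-378a had more reads: miR-378a-5p stood at 376, 225 and 203 normalized reads in WT and 233, 113 and 175 in G12D. Its ratio was lower in G12D (-0.91 ± 0.40 SE, limma adjusted p = 0.270). The ratio of miR-27b was also lower in G12D (-2.22), and that of miR-20a was at 1.77 with at most 19.0 normalized reads of its 3p arm. Single libraries moved several of these values: miR-27b passed without G12D replicate 3 (-3.11, limma adjusted p = 0.0391) but was at -1.43 without G12D replicate 2 (limma adjusted p = 0.512). miR-20a was at 1.04 without G12D replicate 2 (limma adjusted p = 0.563), and miR-340 at -0.76 without WT replicate 3 (limma adjusted p = 0.573).

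**Figure D5:**
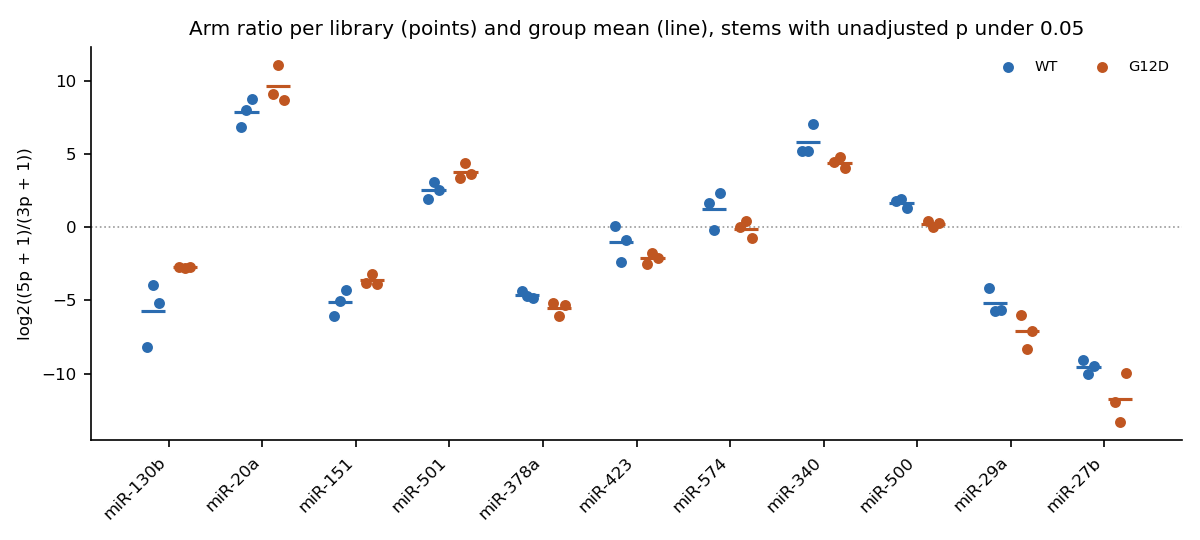
Arm ratio log2((5p + 1)/(3p + 1)) per library (vertical axis) for the 11 stems with an unadjusted p under 0.05, WT in blue and G12D in orange, with a line for each group mean (n = 3). A point above 0 has the 5p arm as the higher in that library. The offset between genotypes is small against the distance between stems, and the genotypes overlap for miR-20a, miR-27b, miR-423 and miR-574.

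Stems whose higher arm differed between the genotype means were miR-140, miR-503, miR-574 and miR-700, and in each of them the libraries of WT and G12D overlapped. For miR-140 both arms had more normalized reads in G12D, the 3p arm by more. miR-140-3p stood at 698, 1003 and 773 in WT and 1903, 1454 and 1888 in G12D. miR-140-5p stood at 1446, 1121 and 1273 in WT and 1681, 1666 and 1814 in G12D. Neither arm overlapped between genotypes in these normalized reads, whose library totals were also all higher in G12D, as given above. Divided by those totals, the levels of miR-140-5p overlapped between the genotypes and those of miR-140-3p did not. In the authors' deposited table miR-140-3p was higher in G12D (log2 fold change 1.01 ± 0.24, adjusted p = 0.00179) and miR-140-5p was at 0.40 ± 0.22 (adjusted p = 0.247). The test of the ratio itself gave -0.66 ± 0.35 SE (limma adjusted p = 0.498), so unequal change of its arms was not shown. miR-574 had a 5p share of 76.2, 46.2 and 84.02% in WT and 50, 57.7 and 37.3% in G12D (-1.35 ± 0.56 SE, limma adjusted p = 0.270). It and miR-423 (-1.09 ± 0.48 SE, limma adjusted p = 0.270) passed in 1 of the alternatives, without WT replicate 2, with differences of -2.09 (limma adjusted p = 0.0323) and -1.75 (limma adjusted p = 0.0137). With other libraries left out both were closer to 0, miR-574 at -0.81 without WT replicate 3 (limma adjusted p = 0.497) and miR-423 at -0.53 without WT replicate 1 (limma adjusted p = 0.841).

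miR-141 and miR-126a also separated the genotypes by share without passing. miR-141-5p was level, at 1784, 1733 and 1470 normalized reads in WT and 1562, 1699 and 1672 in G12D. miR-141-3p stood at 7289, 4810 and 6046 in WT and 7880, 9266 and 8025 in G12D, and the ratio differed by -0.50 ± 0.34 SE (limma adjusted p = 0.535), and by -0.31 without WT replicate 2 (limma adjusted p = 0.573). miR-126a, an endothelial miRNA encoded within the span of Egfl7, had a 5p share of 42.4, 53.4 and 56.4% in WT and 61.2, 62.9 and 67.7% in G12D (0.76 ± 0.57 SE, limma adjusted p = 0.611). It rested on 17.3 to 45.5 normalized reads per arm. The summed blood and endothelial markers given above overlapped between the genotypes, but miR-126a, with a mean of 54.6 normalized reads, was a small part of that sum. The share of endothelial cells was not tested.

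Grouped by family, cluster or known use, no list held a stem whose ratio passed with limma, and counts at an unadjusted p under 0.05 are given beside the 12.1% of all stems. In the miR-200 family 0 of 4 ratios had such a p, with a median difference of -0.39. The let-7 and miR-98 list had 0 of 4 (median 0.57) and the miR-30 family 0 of 4 (0.39). The miR-17~92 list had 1 of 5 at an unadjusted p under 0.05 (-0.03), and the miR-23/27/24 list 1 of 3 (-1.16), where the 5p arms held at most 12.3 normalized reads in a library. Stems known for use of both arms had 2 of 9, miR-423 and miR-151, with a median of 0.28. The 5 stems of the imprinted Dlk1-Dio3 locus had 0 (0.18), as had the 3 of the miR-99/100, miR-10 and miR-125 list (0.77), the 3 oncogenic and hypoxia miRNAs (0.13), miR-192 with miR-215 (0.05) and miR-34a (0.19). Over all 91 stems the median was 0.05.

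Which arm carried the changes in level was read from the authors' deposited table, in which 30 of 325 miRNAs with an adjusted p passed 0.05 (9.23%). Of the 91 stems 14 had an arm that passed, 11 by the 5p and 4 by the 3p arm. This count is per stem, where either arm could pass, and is not to be set against the 9.23%, which is per miRNA. In 1 stem, miR-652, both arms passed and both were higher in G12D (log2 fold changes 1.14 ± 0.35 and 0.73 ± 0.22). By arm, 11 of the 91 higher arms passed. Of the 72 lower arms with an adjusted p 4 passed, namely miR-130b-5p, miR-340-3p, miR-652-5p and miR-140-3p. However, 19 of the 91 lower arms and 0 of the higher arms had no adjusted p in that table and could not pass, among them the partners in 5 of the 14 stems, so these counts do not compare higher with lower arms on equal terms. An arm that passed beside a partner that did not does not by itself show a change of the ratio, and of these 14 stems only miR-130b passed the test of the ratio.

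Some abundant miRNAs could not be paired by exact name because their arms are listed with different locus numbers. With those numbers dropped and rows summed, 13 more stems met the minimum, of which 9 were 5p and 4 were 3p stems. miR-194 had a mean 5p share of 98.1%, miR-26a 99.99%, miR-24 4.21% and miR-103 6.45%. miR-16 was the only one of the 13 with over 10% on its lower arm, at 78.9 to 84.6% 5p in the 6 libraries. The 5p share of miR-24 was 8.91, 4.68 and 4.82% in WT and 2.84, 1.73 and 2.26% in G12D, without overlap. That of miR-16 and of the nearly pure 5p stems miR-30c and miR-26a was higher in G12D, also without overlap. In the others of the 13 the genotypes overlapped. With locus numbers dropped, 0 of 104 ratios passed with limma.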

How the data were processed

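Per the submitters' processing notes, STAR 2.5.2b and DESeq2 were used with the builds mm10 and GRCm38; the read counter is not given in the sources used here. The deposited table of normalized reads is a signal, reads per mature miRNA divided by 1 factor per library, from which whole reads were recovered for 100% of values (tolerance 0.01 read). The deposited table of differential analysis holds log2 fold changes and their errors by the authors. Its p-values, raw and adjusted, are the authors' too, as are the seed families named for each peak.

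Shares were computed per library. The arm ratio was tested with limma 3.58.1 (R 4.3.3) with a variance trend on the lower arm's mean level, and Benjamini-Hochberg adjustment over the 91 stems. edgeR 4.0.16 and DESeq2 1.42.0 tested the arm by genotype interaction on recovered reads. Scripts were tested on simulated data. Library shares used an exact permutation test. Duplex ends used ViennaRNA 2.7.2.

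Stems named were those that passed without overlap, the 10 with most reads, the 10 nearest 50%, the 5 with the largest SD (both among stems of at least 100), those whose higher arm differed between genotypes, list members and those nearest the minimum of 20; stems named for an unadjusted p under 0.05, for shared seeds, for an arm in the authors' table or for lack of overlap were added after values were seen. The members and lists were chosen with earlier results of these data known.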

Additional observations from a re-analysis of the deposited data

How the results depend on the processing

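The count of 1 stem past the threshold was 0 with a pseudocount of 0.5, with a lower arm of at least 5, without the variance trend, with a trend on both arms, with locus numbers dropped, with the replicate block, with edgeR's interaction test under TMM or deposited factors, and with DESeq2. The numbers of stems at an unadjusted p under 0.05 were 9 by edgeR under either factor, 8 by DESeq2 and 5 with the replicate block, against 11 by limma. The count past the adjusted threshold was 2 with no filter, and 0 to 3 with 1 library left out. miR-130b kept its sign in 20 of 20 alternatives, from 1.80 to 3.93, and passed in 9. Of 278 alternative values for 14 single stems 264 were the same by sign and threshold, 11 lost the threshold, 3 gained it and 0 reversed. Most of these stems were picked by their unadjusted p in the same libraries, so an unreversed sign was likely beforehand. The difference in the 5p share of all reads (0.0977 points) was -1.44 without miR-21a and -0.969 to 1.17 with a library left out. That of the median 5p share (-2.37 points) was 0.749 with locus numbers dropped, and -4.78 to -0.515 with a library left out. Paired by replicate number these differences were 0.0977 and -2.37 with the replicate block, by construction (exact sign-flip p = 1 and 0.25, the latter the smallest that 3 pairs allow). Same-numbered libraries share only a number: their deviations correlated at -0.15, -0.27 and -0.32, and none correlated best with its own number. Minor arms with few reads limit most ratios.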
